A study of Mus musculus with 2 samples.

Results

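Cell cycle genes were followed in 2 samples of liver tumour tissue, as 48 genes chosen by name: 26 of the G1/S transition and of DNA replication, and 22 of G2 and mitosis. A gene entered when a probe set on the array was annotated to that gene alone, which held for 47 of the 48, out of 19938 genes so annotated. The missing gene was Ccnb1, a mitotic cyclin. One sample was carcinoma tissue of HLF-deficient origin and the other carcinoma tissue of wild-type (WT) origin, both after DEN, and they are called the HLF-deficient tumour and the WT tumour. DEN (diethylnitrosamine) is a chemical liver carcinogen that both genotypes received, and HLF (hepatic leukemia factor) is a transcription factor of the PAR bZIP family. How the Hlf gene was disrupted, the age of the animals, and how many tumours or mice each sample held are not stated in the labels.

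The cell cycle is driven by cyclins that bind and switch on cyclin-dependent kinases (CDKs). D-type cyclins with Cdk4 and Cdk6, then E-type cyclins with Cdk2, inactivate the retinoblastoma proteins and free E2F factors to switch on genes for DNA replication. Later, cyclins A and B with Cdk1, the polo and aurora kinases and the spindle proteins carry the cell through mitosis, and their genes are held off in resting cells by the DREAM complex. Adult hepatocytes divide rarely, and these genes are known to be high in regenerating liver and in many liver tumours.

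Values are expression on a log2 scale, made by RMA, which corrects background, equalises arrays and summarises probes. The 2 arrays as deposited were not fully equal. Their medians over all probe sets were 3.61 in the HLF-deficient and 3.73 in the WT tumour. Each genotype had 1 array. No p-value, SD or interval between tumours can therefore be given, and every difference (HLF-deficient minus WT) compares 2 tumour samples and not the genotypes. The number of arrays limits the precision. A gene was compared when it reached a floor of 2.98 on at least 1 array, the 95th percentile of 1250 probe sets of chemoreceptor genes that liver does not use; 14575 genes did. Among 696 genes with more than 1 probe set above the floor, the difference of a single probe set had an SD of 0.23, judged from the gap between the 2 brightest probe sets. This guide covers neither mice nor tumours, and probe sets of 1 gene can share probes. The median difference of all genes compared was 0.07.

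The labels and the tissue were checked on marker genes. Hlf had a level of 3.79 in the HLF-deficient tumour and 5.13 in the WT tumour, a difference of -1.34. The 7 hepatocyte markers measured, among them Alb and Ttr, lay between 10.73 and 12.41 in the HLF-deficient tumour and between 10.53 and 12.55 in the WT tumour, with a median difference of 0.04. Markers of some other cell types differed more. Of 8 endothelial markers, 5 were positive (62.5%, against 78.4% of genes in the same range of mean level). Their median was 0.66, against 0.21 in that range. Of 8 macrophage markers, 6 were positive (75%, against 70.7% in their range), with a median of 0.22 against 0.17. The macrophage values ran from -0.37 in Clec4f to 1.86 in Cd14, and Vsig4 was also negative at -0.36. Stellate cell markers had a median of 0.28 (0.21 in their range of level) with 7 of 8 positive (87.5%, against 79.5%). T and NK cell markers (5 of 8 listed were compared) had a median of -0.05 (-0.13 in their range). B and plasma cell markers (5 of 8) had one of -0.24 (0.01 in their range). Cholangiocyte markers (4 of 8) had a median of -0.12 (-0.06 in their range) and erythroid markers (3 of 6) one of -0.01 (0.05 in their range). Proliferation genes are used by every dividing cell type. The part of these cell types in the values that follow was not tested, and in bulk tissue fewer dividing cells and less RNA per dividing cell cannot be told apart.

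The promoters of the members were searched for short sequences known to mark the 2 waves of the cycle. RefSeq windows (assembly GRCm38.p6, from 250 bases before to 50 bases after a transcription start) were held for 37 members, with 40 windows. E2F sites were searched in 4 spellings, of which the first was TTCCCGC, the second TTCGCGC, the third TTGCCGC and the fourth TTGGCGC. The CHR (cell cycle genes homology region, contacted by the MuvB core of DREAM) was searched as TTTGAA or TTCGAA, and the NF-Y box as CCAAT. Both strands were read, and an E2F site of the form TTGGCGC can overlap an NF-Y box read on the other strand. An E2F sequence was found in 12 of 24 windows of G1/S and replication genes (50%) and in 3 of 16 windows of G2/M genes (18.8%), against 9.57% of all 32841 windows. A CHR sequence was found in 3 of the 24 G1/S windows (12.5%) and in 12 of the 16 G2/M windows (75%), against 19.2% of all windows. A CCAAT box was found in 14 of 24 (58.3%) and 14 of 16 (87.5%), against 37.4%. Base composition was not matched, and a match of letters is not a shown binding site.

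Some windows begin inside a gene because other transcripts start farther out. Restricted to windows at the outermost annotated start, E2F sequences were in 7 of 13 G1/S windows and 2 of 11 G2/M windows, against 8.18% of 19820 such windows. CHR sequences were in 1 of 13 and 7 of 11, against 21.0%. The D-box, to which PAR bZIP factors such as HLF bind, was searched as TTACGTAA or TTATGTAA after the data were seen. It was found in 0 of the 24 G1/S windows, 0 of the 16 G2/M windows and 1.06% of all windows.

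To show the 2 arrangements, 4 members are given as the 250 bases before the outermost start, with motif matches in capitals. Cdkn2c, the member with the highest difference, and Rrm2, a subunit of ribonucleotide reductase, have E2F sequences. Cdk1 and Ccnb2, the kinase and a cyclin of mitosis, have CHR sequences and CCAAT boxes and lay nearly level between the tumours. The windows are chr4:109666757-109667006 (minus strand) for Cdkn2c, chr12:24708004-24708253 (plus strand) for Rrm2, chr10:69352913-69353162 (minus strand) for Cdk1 and chr9:70421555-70421804 (minus strand) for Ccnb2. The capitals in Cdkn2c mark an E2F sequence. Those in Rrm2 mark an E2F sequence read on the other strand and a CCAAT box. In Cdk1 they mark 3 boxes of CCAAT on the other strand, 2 E2F sequences and 2 CHR sequences, and in Ccnb2 a CHR sequence and 3 CCAAT boxes.
Cdkn2c: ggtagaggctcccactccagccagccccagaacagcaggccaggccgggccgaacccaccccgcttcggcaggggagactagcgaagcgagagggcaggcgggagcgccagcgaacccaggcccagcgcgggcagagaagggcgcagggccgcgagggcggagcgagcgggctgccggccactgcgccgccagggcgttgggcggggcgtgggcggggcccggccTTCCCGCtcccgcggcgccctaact
Rrm2: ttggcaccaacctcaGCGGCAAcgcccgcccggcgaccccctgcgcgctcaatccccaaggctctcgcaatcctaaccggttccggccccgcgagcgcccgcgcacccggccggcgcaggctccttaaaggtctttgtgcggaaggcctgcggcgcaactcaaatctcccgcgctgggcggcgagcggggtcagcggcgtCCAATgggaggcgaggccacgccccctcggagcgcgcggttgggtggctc
Cdk1: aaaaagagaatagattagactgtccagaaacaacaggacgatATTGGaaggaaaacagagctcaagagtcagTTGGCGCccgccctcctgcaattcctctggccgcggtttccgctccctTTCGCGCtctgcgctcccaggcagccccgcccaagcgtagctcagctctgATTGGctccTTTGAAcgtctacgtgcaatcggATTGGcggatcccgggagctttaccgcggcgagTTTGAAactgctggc
Ccnb2: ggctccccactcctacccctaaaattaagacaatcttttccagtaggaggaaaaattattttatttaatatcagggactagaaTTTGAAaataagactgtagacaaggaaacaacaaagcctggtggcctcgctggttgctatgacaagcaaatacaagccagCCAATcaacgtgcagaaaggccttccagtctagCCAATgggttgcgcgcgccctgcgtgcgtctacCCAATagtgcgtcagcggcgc

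As a set, the cell cycle genes were close in both tumours. Of the 47 genes measured, 46 reached the floor, and all 46 were above it on both arrays. The exception was Ccne2, a cyclin E, at 2.78 in the HLF-deficient and 2.62 in the WT tumour. Taking 2-fold as the mark, 0 of the 46 lay above it in the HLF-deficient tumour, where 1.5% of all genes did, and 1 lay below its inverse, where 0.364% of all genes did. At 1.5-fold, 1 member was higher (6.37% of all genes) and 2 were lower (3.11% of all genes), and these shares of the set, 2.17% and 4.35%, rest on 3 genes. Their median difference was 0.09 with 28 of 46 positive (60.9%). Over the 12135 genes in the same range of mean level the median was 0.10, with 61.4% positive. Within the spread of a single probe set, below 0.23 in size, lay 26 of the 46 (56.5%), against 47.8% of all genes compared.

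**Figure D1:**
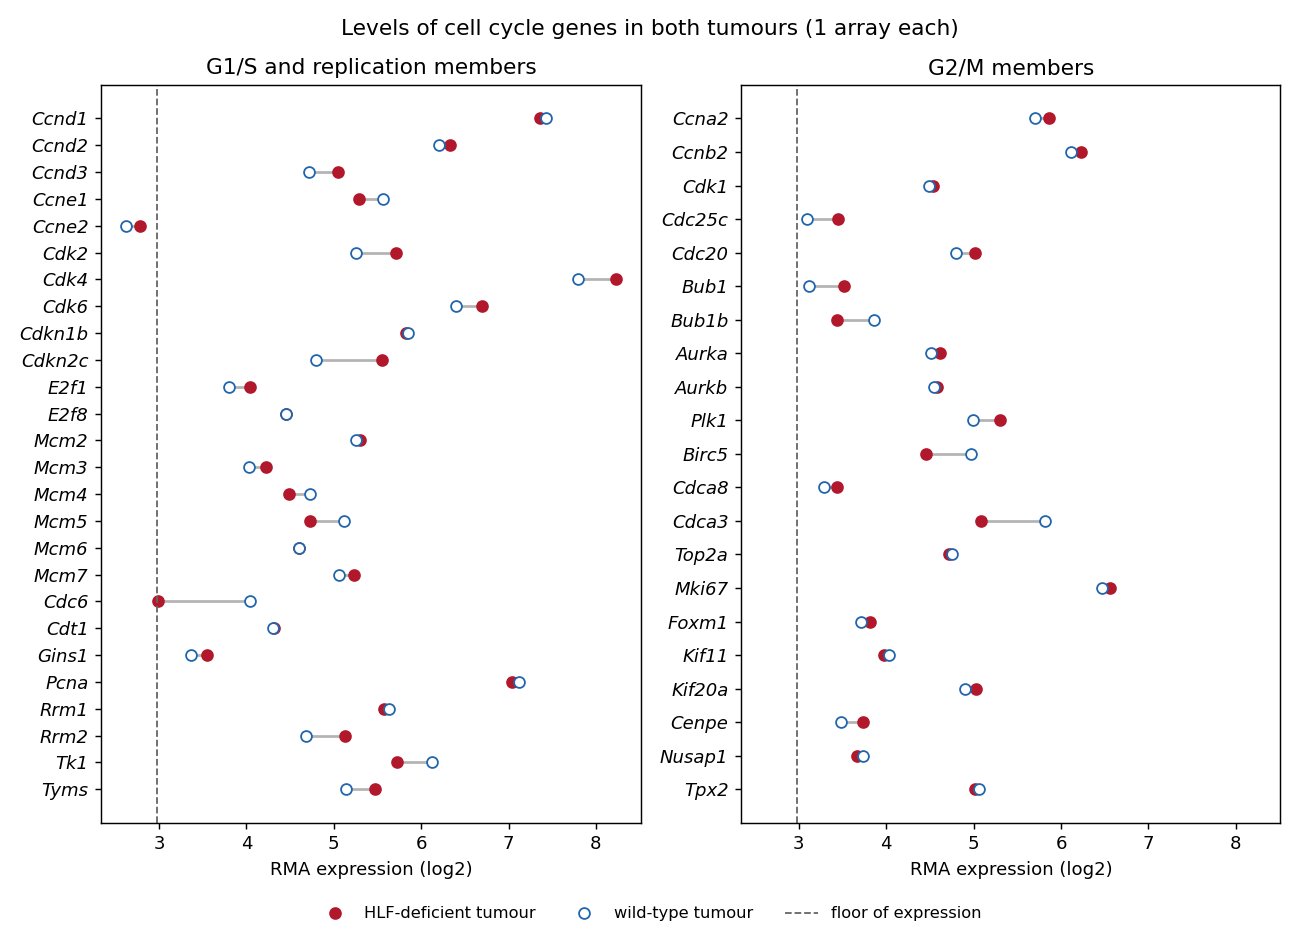
RMA expression (log2, horizontal axis) of the 26 G1/S and replication members (left) and the 21 G2/M members (right) in the HLF-deficient tumour (filled) and the WT tumour (open), 1 array each; the dashed line is the floor of 2.98. Of the 46 pairs that reach the floor, 26 differ by less than 0.23, the longest gaps belong to Cdc6, Cdkn2c and Cdca3, and only Ccne2 lies below the floor on both arrays.

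The 2 waves were compared by their medians. The 25 G1/S and replication genes compared had a median difference of 0.04, with 14 positive and the middle 50% of values between -0.07 and 0.30. The 21 G2/M genes had a median of 0.10, with 14 positive and the middle 50% between -0.04 and 0.16. Genes in the level range of each group had medians of 0.12 and 0.07. The G1/S median minus the G2/M median was -0.06, and it was 0.03 with list means in place of medians, so the order of the 2 groups depended on the summary. Members with an E2F sequence (11 G1/S genes) had a median of 0.02 and those without (10 genes) 0.14. Members with a CHR sequence (12 G2/M genes) had a median of 0.10, with values from -0.73 to 0.41, and the 3 without one lay between -0.52 and 0.25.

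The G1 cyclins, of which the D-type respond to growth signals, had values of both signs. Ccnd1, the D-type cyclin induced by mitogens and amplified in some liver cancers, had a level of 7.36 in the HLF-deficient tumour and 7.43 in the WT tumour. Ccnd2 differed by 0.13 and Ccnd3 by 0.33, with levels of 5.04 in the HLF-deficient and 4.71 in the WT tumour for Ccnd3. Ccne1, the cyclin E that activates Cdk2, was the lowest of them at 5.29 in the HLF-deficient and 5.56 in the WT tumour, a difference of -0.27. The D-type cyclins therefore lay between -0.07 and 0.33, and the signs of Ccnd1 and Ccnd2 turned under other scalings of the arrays.

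Their kinase partners were all higher. Cdk2 had 5.71 in the HLF-deficient tumour and 5.25 in the WT tumour, a difference of 0.46. Cdk4 had 8.23 in the HLF-deficient and 7.79 in the WT tumour, a difference of 0.44. Cdk6 had 6.69 in the HLF-deficient and 6.39 in the WT tumour, a difference of 0.30. All 3 kept a positive value under each other scaling, down to 0.11 for Cdk6, but none reached 1.5-fold, and the 4856 genes in their range of level had a median of 0.22.

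The largest positive difference of the set was in a brake of these kinases. Cdkn2c, on chromosome 4 (chr4:109660876-109666756), encodes p18INK4c, an inhibitor that binds Cdk4 and Cdk6. Its level was 5.56 in the HLF-deficient tumour and 4.80 in the WT tumour, a difference of 0.76 or 1.69-fold. Of the 3158 genes with a mean level within 0.5 of it, 4.21% were at least as much higher. Cdkn2c was picked as the highest of 46 members compared, so this share is not a test. The difference ran from 0.67 after quantile or loess normalization to 0.88 with centred arrays. Cdkn1b, which encodes p27, an inhibitor of Cdk2 complexes, was level at 5.83 in the HLF-deficient and 5.85 in the WT tumour. Its dimmer second probe set did not reach the floor in either tumour.

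The E2F factors and the replicative helicase also lay close together. E2f1, an activator of S phase genes, differed by 0.23, and E2f8, an atypical repressing E2F that promotes hepatocyte polyploidy, had a level of 4.45 in the HLF-deficient and 4.46 in the WT tumour. Mcm2 to Mcm7 encode the ring-shaped helicase that unwinds DNA at the fork. Their 6 differences had a median of 0.02, 3 positive and 3 negative. Mcm5 was the lowest, at 4.73 in the HLF-deficient and 5.12 in the WT tumour (-0.39), followed by Mcm4 at 4.49 in the HLF-deficient and 4.72 in the WT tumour (-0.23). Mcm3 and Mcm7 were the highest at 0.20 and 0.18, and Mcm2 and Mcm6 differed by 0.04 and -0.01. The subunits of 1 complex thus did not share a direction, and each stayed within 1.5-fold. Of the 6, 4 lay within the spread of a single probe set, below 0.23 in size. The signs of Mcm2 and Mcm6 turned under other scalings of the arrays.

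**Figure D2:**
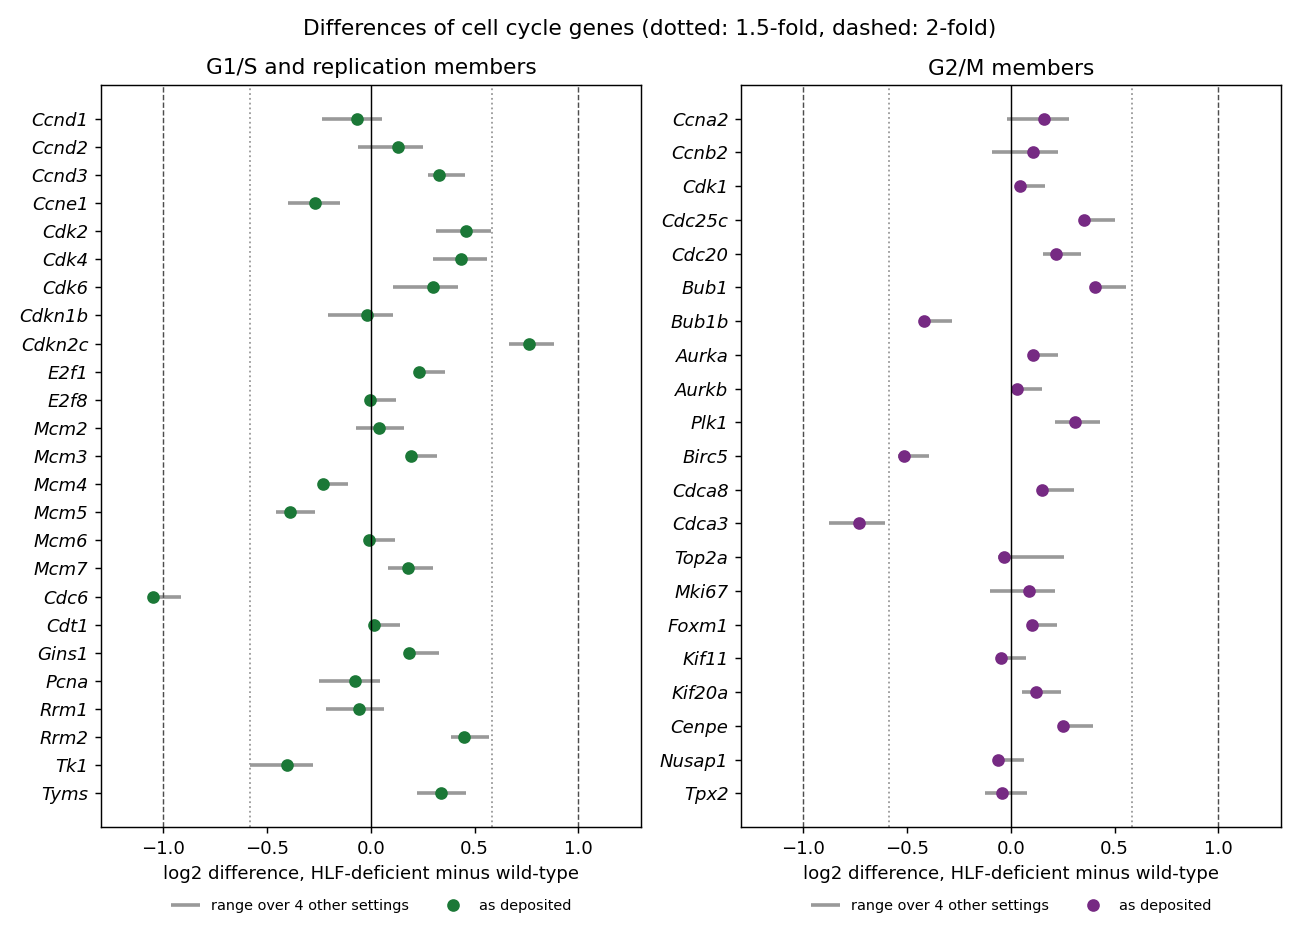
Log2 difference, HLF-deficient minus WT (horizontal axis), of the 25 G1/S and replication members (left) and 21 G2/M members (right) that reached the floor; points are the deposited values and grey bars the range over centring, quantile normalization, loess and the mean of probe sets. Dotted lines mark 1.5-fold and dashed lines 2-fold: Cdc6 alone lies past a dashed line, and Cdkn2c and Cdca3 alone join it past the dotted lines.

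Cdc6 was the one member beyond 2-fold. It lies at chr11:98907709-98923942 and encodes the ATPase that, with Cdt1, loads the MCM helicase onto origins before S phase. Its level was 2.99 in the HLF-deficient tumour, just above the floor, and 4.04 in the WT tumour, a difference of -1.05 or 2.07-fold lower. Of the 3564 genes with a mean level within 0.5 of it, 0.281% were at least as much lower, and their median was -0.16. As the lowest of 46 members compared, Cdc6 was picked for its size, so this share is not a test. The difference was -0.93 with centred arrays and -0.92 after quantile or loess normalization, so the 2-fold mark was not reached in these 3 settings. Its loading partner Cdt1 was level, at 4.32 in the HLF-deficient and 4.30 in the WT tumour. Gins1, part of the active helicase, differed by 0.18.

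Genes of the sliding clamp and of nucleotide supply went both ways. Rrm2, the inducible small subunit of ribonucleotide reductase, had 5.13 in the HLF-deficient tumour and 4.68 in the WT tumour, a difference of 0.45, while the large subunit Rrm1 was at -0.06. Tyms, the thymidylate synthase of the de novo pathway, had 5.48 in the HLF-deficient and 5.14 in the WT tumour, a difference of 0.34. Tk1, the thymidine kinase of the salvage pathway, had 5.72 in the HLF-deficient and 6.12 in the WT tumour, a difference of -0.40. Its second probe set differed by -0.36, but it may not be a separate reading, as probe sets of 1 gene can share probes. The median of genes near the level of Tk1 was 0.23, and 2.28% of those 2714 genes were at least as much lower. Tk1 was among the lowest G1/S members and was picked for its size, so this share is not a test. Pcna, the clamp that holds polymerases on DNA, was level at 7.04 in the HLF-deficient and 7.12 in the WT tumour. Its 2 probe sets gave nearly the same levels (difference -0.08 in both), and pseudogene copies of Pcna are annotated, so these may not be separate readings.

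Cyclins and kinases of mitotic entry differed little. Ccna2, cyclin A, was at 0.16 and Ccnb2, cyclin B, at 0.11. Cdk1, their kinase, had a level of 4.54 in the HLF-deficient tumour and 4.49 in the WT tumour. Cdc25c, a phosphatase that activates Cdk1, had 3.45 in the HLF-deficient and 3.10 in the WT tumour, a difference of 0.35 near the floor. All 4 were positive as deposited, and after quantile normalization Ccna2 was at -0.02 and Ccnb2 at -0.09.

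In the spindle checkpoint, the related genes Bub1 and Bub1b had differences of opposite sign. Bub1, the checkpoint kinase at kinetochores, had 3.52 in the HLF-deficient tumour and 3.11 in the WT tumour, a difference of 0.41. Bub1b (BubR1), a component of the mitotic checkpoint complex, had 3.44 in the HLF-deficient and 3.86 in the WT tumour, a difference of -0.42. Cdc20, the activator of the anaphase-promoting complex that this checkpoint restrains, had 5.02 in the HLF-deficient and 4.80 in the WT tumour, a difference of 0.22. Levels of Bub1 and Bub1b were within 1 log2 unit of the floor, where RMA compresses differences.

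The 2 lowest G2/M members were Cdca3 and Birc5. Cdca3 (chr6:124829530-124833701) encodes Tome-1, an adaptor for the degradation of the Cdk1 inhibitor Wee1 at mitotic entry. It had 5.09 in the HLF-deficient tumour and 5.82 in the WT tumour, a difference of -0.73 or 1.66-fold lower. Of the 3044 genes within 0.5 of its mean level, 0.690% were at least as much lower, and the value ran from -0.61 with centred arrays to -0.87 after quantile normalization. That share is not a test either, as Cdca3 was picked as the lowest of the 21 G2/M members. Birc5 encodes survivin, a subunit of the chromosomal passenger complex. It had 4.45 in the HLF-deficient and 4.97 in the WT tumour, a difference of -0.52. Its partners in that complex did not go with it: Aurkb, the kinase, was at 0.03 and Cdca8 (borealin) at 0.15. Aurka, the kinase of spindle poles, was at 0.11, its activator Tpx2 at -0.04, and Plk1, the polo kinase, at 0.31, with 5.30 in the HLF-deficient and 4.99 in the WT tumour.

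The markers most used to score proliferation were level. Mki67, the gene of the Ki-67 antigen, had 6.56 in the HLF-deficient tumour and 6.47 in the WT tumour. Top2a, the topoisomerase that untangles replicated chromosomes, had 4.72 in the HLF-deficient and 4.75 in the WT tumour. A second probe set of Top2a, under the floor in both tumours, differed by 0.54 and moved the mean of both to 0.26. Foxm1, a transcription factor of G2/M genes, differed by 0.10. Of the spindle and chromosome genes, the motor Kif11 had 3.98 in the HLF-deficient and 4.03 in the WT tumour, and Nusap1, a microtubule-binding protein, had 3.67 in the HLF-deficient and 3.73 in the WT tumour. The motor Kif20a was at 0.12. The kinetochore motor Cenpe was the highest of these, with 3.73 in the HLF-deficient and 3.48 in the WT tumour, a difference of 0.25.

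The sign of the difference held for 31 of the 46 members under 4 other settings, which were 3 scalings and the mean of probe sets. The mean of probe sets can change only members with more than 1 probe set. It turned in at least 1 of them for the other 15, all at or below 0.16 in size as deposited. The difference between the arrays also depended on level, so that genes of mean level near 3.5 had a median near -0.16 and genes near 6 one near 0.23. Tk1, Ccne1, Pcna and Ccnd1 lay below the median of genes of their level (0.23, 0.20, 0.22 and 0.20), while Bub1 and Cdc25c lay above theirs (-0.19 for both).

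**Figure D3:**
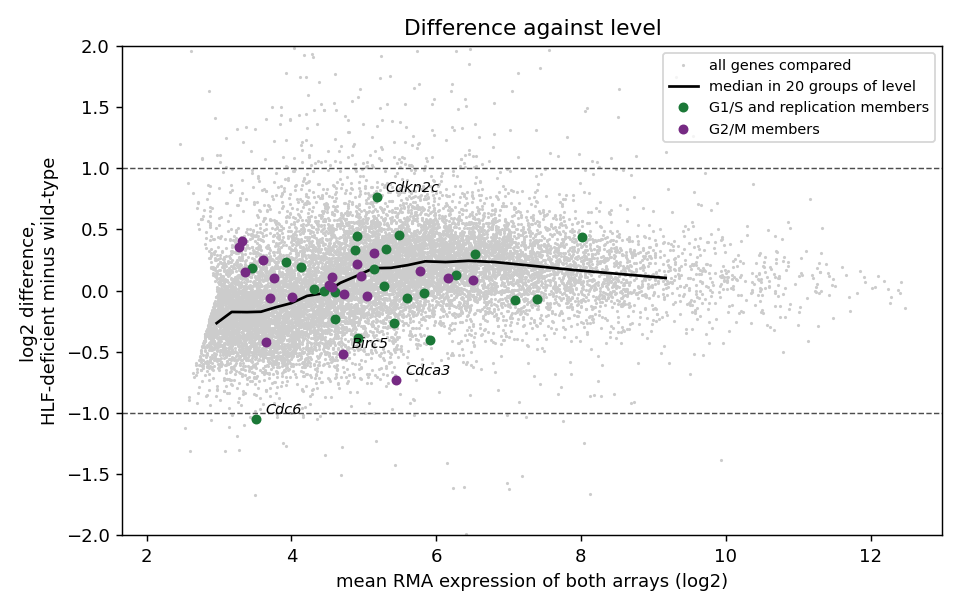
Log2 difference, HLF-deficient minus WT (vertical axis), against the mean RMA level of both arrays (log2, horizontal axis) for all 14575 genes compared (grey), their median in 20 groups of level (line) and the members (coloured); 36 genes lie outside the vertical range, and names are given for members at 0.5 or more in size. Members spread around the line, with Cdc6, Cdca3 and Birc5 below it and Cdkn2c above it.

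Genes of the same pathways outside the set were summarised in the same way. Of 36 further replication genes (origin, polymerase, clamp loader and E2F genes), 33 were compared. Their median was 0.01 (0.04 in their range of level) and 18 were positive. At 1.5-fold, 1 was higher (6.37% of all genes) and 0 were lower (3.11% of all genes). The one was Cdc25a, the phosphatase that activates Cdk2, with 4.63 in the HLF-deficient and 4.03 in the WT tumour. Next was Dbf4, the activator of the replication kinase Cdc7, at 0.37, and the lowest were E2f7 (-0.52), a relative of E2f8, and Dut (-0.43), a dUTPase. Of 50 further mitosis genes, 46 were compared, with a median of -0.00 (0.07 in their range of level) and 23 positive. Their values spread more widely than those of the 21 G2/M members, with the middle 50% between -0.30 and 0.23, against -0.04 and 0.16 for the members. Below 0.23 in size lay 19 of the 46 (41.3%), against 14 of the 21 G2/M members (66.7%) and 47.8% of all genes. Among the replication genes 19 of 33 (57.6%) did, against 12 of the 25 G1/S members (48.0%). Of the 46 further mitosis genes compared, 0 were higher by 1.5-fold (6.37% of all genes) and 1 was lower (3.11% of all genes). That gene was Racgap1 of the cytokinesis machinery, with 4.21 in the HLF-deficient and 4.80 in the WT tumour. The kinase Melk was next at -0.57, and Kif2c, a microtubule depolymerase, and Anln, a cytokinetic ring protein, were highest at 0.53 and 0.51.

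Inhibitors and repressors of the cycle had a median above those of both member groups. The list held genes of CDK inhibitors, retinoblastoma family, DREAM and antiproliferative proteins, and also Wee1, Pkmyt1, Fzr1 and E2f6. Of its 23 genes, 22 were compared. Their median was 0.21 (0.13 in their range of level) and 18 were positive (81.8%, against 65.1% of genes in that range). The median was 0.13 both after quantile and after loess normalization, where that of all genes was 0.02 and 0.03. At 1.5-fold, 1 was higher (4.55% of the list, against 6.37% of all genes) and 0 were lower (3.11% of all genes). The higher gene also passed 2-fold, where 1.5% of all genes did. It was Btg2, an antiproliferative gene that is also induced as an immediate early and p53 response. Its level was 7.45 in the HLF-deficient tumour and 5.48 in the WT tumour, a difference of 1.98 or 3.94-fold. Its relative Tob1 was at 0.53. The retinoblastoma family genes Rb1, Rbl1 and Rbl2, named after their values were seen, were at 0.41, 0.43 and 0.25. The lowest were Cdkn1c, which encodes the CDK inhibitor p57, with 3.95 in the HLF-deficient and 4.53 in the WT tumour (-0.58), and Tfdp1, a dimer partner of E2F, at -0.07. The CDK inhibitor genes Cdkn2a, Cdkn2b and Cdkn2d, also named after their values were seen, were at 0.08, 0.03 and 0.19. They and Cdkn1c all lay below the median of the list. Cdkn1a had no probe set annotated to it alone.

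**Figure D4:**
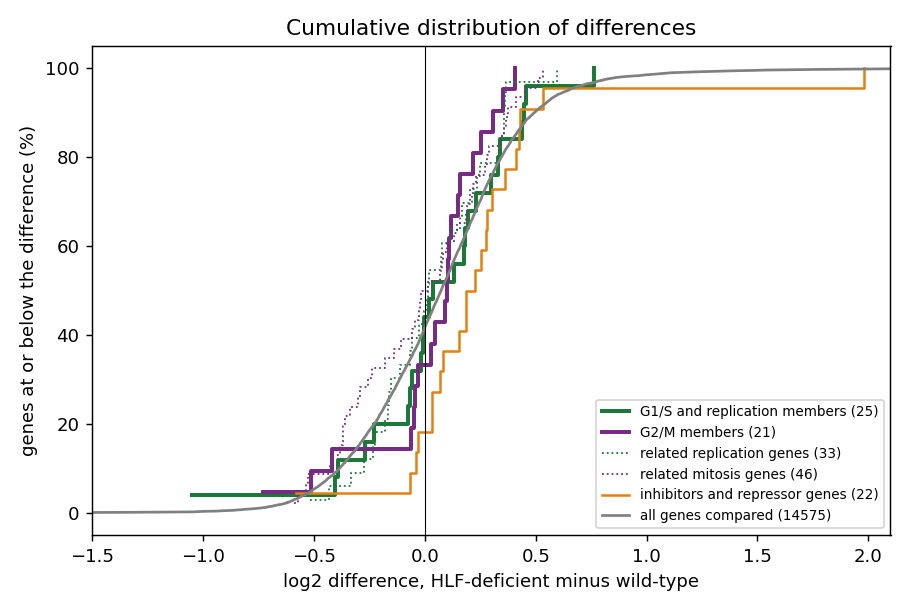
Share of genes (%, vertical axis) at or below a log2 difference, HLF-deficient minus WT (horizontal axis), for the G1/S and replication members, the G2/M members, 3 related gene lists and all 14575 genes compared, with the number of genes in brackets. The member curves cross the curve of all genes near its middle (medians 0.04 and 0.10 against 0.07). The curve of inhibitors and repressors lies to its right in the middle, with a median of 0.21, but not in the tails. Of that list, 4.55% were higher by 1.5-fold (Btg2 alone, at 1.98), against 6.37% of all genes.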

How the data were processed

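Total RNA from 2 carcinoma samples was hybridised to 2 arrays. The deposited values were made by RMA in Affymetrix Expression Console, per the submitters' processing notes. They are on a log2 scale as read from the values deposited by the authors, since no label names the scale or which arrays were normalized together. RMA compresses differences near background.

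From the 35556 probe sets, the 21789 annotated to 1 gene were kept, and the brightest probe set by mean of both arrays was used for each of 19938 genes. The floor, the 2-fold and 1.5-fold rules of size and the medians of lists were computed with pandas 2.3.3 and numpy 2.4.6, and the procedure was tested on simulated data. No test between genotypes was possible with 1 array each. Every member is named by its role. Both levels are given for the 5 highest and 5 lowest of each wave and all beyond 1.5-fold, and from each related list the 2 highest and 2 lowest are named. Alternatives were centring, quantile normalization, loess (span 0.4), the mean of probe sets, other floors and list means. The members and lists were chosen with earlier results of these data known.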

Additional observations from a re-analysis of the deposited data

How the results depend on the processing

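No paired analysis was possible because each genotype had 1 array. The count of members lower by 2-fold, 1 as deposited (Cdc6), was 0 with centred arrays, 0 after quantile normalization and 0 after loess, where Cdc6 lay at -0.93, -0.92 and -0.92. It was 1 under the mean of probe sets, under floors at the 90th and 99th percentile, with no floor and with values set to the floor, and the count higher by 2-fold was 0 in all these settings. At 1.5-fold, Cdkn2c higher and Cdc6 and Cdca3 lower were the members called in each of the 8 settings. Only the 3 scalings could change the differences of these members. Each has 1 probe set and lies above the floor of 2.98 on both arrays, so the other settings leave their differences as deposited. The G1/S median ran from 0.01 after loess to 0.16 with centred arrays, and the G2/M median from 0.05 after loess to 0.22 with centred arrays, or 0.03 as a list mean. Centring moved the median of all genes from 0.07 to 0.20. Of 184 values of single members under other settings, 183 stayed within 0.23 of the deposited value, and the exception was Top2a at 0.26 with the mean of its probe sets. Many of these values could not leave that range. Centring shifts every member by the same 0.12, and the mean of probe sets changes only members with more than 1 probe set. Signal over background limits Cdc6, Bub1, Cdc25c and other members near the floor of 2.98.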
